A study of Daphnia magna with 15 samples.

Results

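The extracellular matrix genes of *Daphnia magna* described here are the genes whose product name in the authors' annotation contains, in any case of letters, collagen alpha, laminin, fibronectin, integrin, nidogen, perlecan, basement membrane or matrix metalloproteinase. The rule found 57 of 26646 genes: 12 collagen chains, 6 laminin chains, 3 genes for nidogen and perlecan-type proteins, 5 fibronectin-named proteins, 11 integrins and integrin-named proteins, 4 matrix metalloproteinases and 16 disintegrin metalloproteinases. The last of these roles was taken in only because the word disintegrin holds the letters of integrin, and its members are proteases rather than receptors. The rule used names and no measured value.

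RNA was sequenced from pools of whole, mature, parthenogenetic females of clone P132.85 that carried their first clutch and had been raised at 15 °C from birth on 1 of 5 diets, with 3 pools per diet. CRY animals ate *Cryptomonas*, an alga that holds eicosapentaenoic acid (EPA) by nature. CY+EPA and CY animals ate the cyanobacterium *Synechococcus elongatus* with and without EPA in liposomes, and GA+EPA and GA animals ate the green alga *Acutodesmus obliquus* with and without EPA in liposomes. Both basal foods are free of EPA. According to the study's methods the cyanobacterial diets also received alpha linoleic acid and cholesterol, so that a comparison of CY with GA or CRY is not one of the basal food alone, and the green algal animals sequenced without EPA received empty liposomes, whereas the labels say only GA. All animals are of 1 clone, and the labels give pools of 3 animals in one place and of 5 in another. Neonates were spread at random over replicate vessels of each diet, and the methods describe a pool as the material of 1 replicate, but neither they nor the labels name the vessel of a pool. Comparisons with GA share the same GA pools, and those with CY the same CY pools.

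The libraries held between 18062681 and 22287959 expected counts, and levels are given as CPM, library-scaled counts after TMM scaling of the 15 libraries together. A gene was called at an edgeR quasi-likelihood p, adjusted after Benjamini and Hochberg over all genes tested, of at most 0.01, and these p-values measure only the spread between pools. In 5 of the 15 libraries the best match over 9949 genes with a mean above 5 CPM was a library of another diet. CY replicate 1 correlated best with CRY replicate 1 (Spearman's rho 0.984, against 0.952 and 0.928 with the other CY libraries), and GA+EPA replicate 1 with CY replicate 3 (0.966, against at most 0.948 in its own group). Results without them are given too, except for CY+EPA against CY and the difference between the EPA responses on both foods. For those, counts without them are not given. The animals were whole, and transcripts of yolk, digestive protease, muscle, cuticle, haemoglobin and opsin genes were all present in every library. The 1 gene listed as a haemocyte marker had 4.71 to 11.6 CPM and was lowest in GA+EPA replicate 1.

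The extracellular matrix is the mesh of secreted proteins on which animal cells sit. In arthropods its main sheet is the basement membrane, in which type IV collagen and laminin networks are held together by nidogen and the proteoglycan perlecan and are bound by integrins on the cell surface. The sheet lines gut, muscle, ovary and fat body, is produced in insects largely by fat body and haemocytes, and is cut by matrix metalloproteinases. In whole animals fewer cells of a type and less RNA per cell cannot be told apart.

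By CPM, which does not correct for gene length, the matrix genes lay above the median gene. A test over the 5 diets was possible for 51 of the 57 (89.5%, against 56.2% of all genes), at a median of 34.4 CPM against 13.8 CPM over all genes tested, and 12 averaged at least 100 CPM. The median gene model was 3352 bases long, against 1195 over all genes, so these CPM do not compare levels per base. In the authors' artNOG classes 25 of the 57 members were in class W, extracellular structures, which held 103 genes in all. Reads of 9 members were split with other genes in every library, and of 15 in at least 1 library, so that their levels depend on how RSEM divided those reads. The 57 genes lay on 37 scaffolds.

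Over the 5 diets 7 of 51 members were called (13.7%), where 8.12% of all genes were called. At an adjusted p of 0.05 there were 17, against 24% of all genes. The 7 were the collagen chains KZS05104.1, KZS07992.1, KZS07034.1 and KZS21527.1, the laminin chain KZS17228.1, nidogen-2 and the large fibronectin-named protein KZS16485.1. Among the 50 members with a mean of at least 1 CPM, the highest diet mean was at least 2 times the lowest for 8 and under 1.25 times the lowest for 14. The shares of all genes at these ratios are not given. Among the 8 were KZS03231.1 and KZS06951.1, which were high in single pools, but none of the 7 called members. The CY diet held the highest mean for 16 of the 51 members (31.4%, against 13.9% of all genes) and the lowest for 2. Without CY replicate 1 and GA+EPA replicate 1, a setting chosen after seeing the data, the test over the 5 diets called 12 members, among 16.9% of all genes. Without CRY replicate 3 it called 4, with KZS07034.1, KZS21527.1 and nidogen-2 lost. The share of all genes called without CRY replicate 3 is not given.

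**Figure D1:**
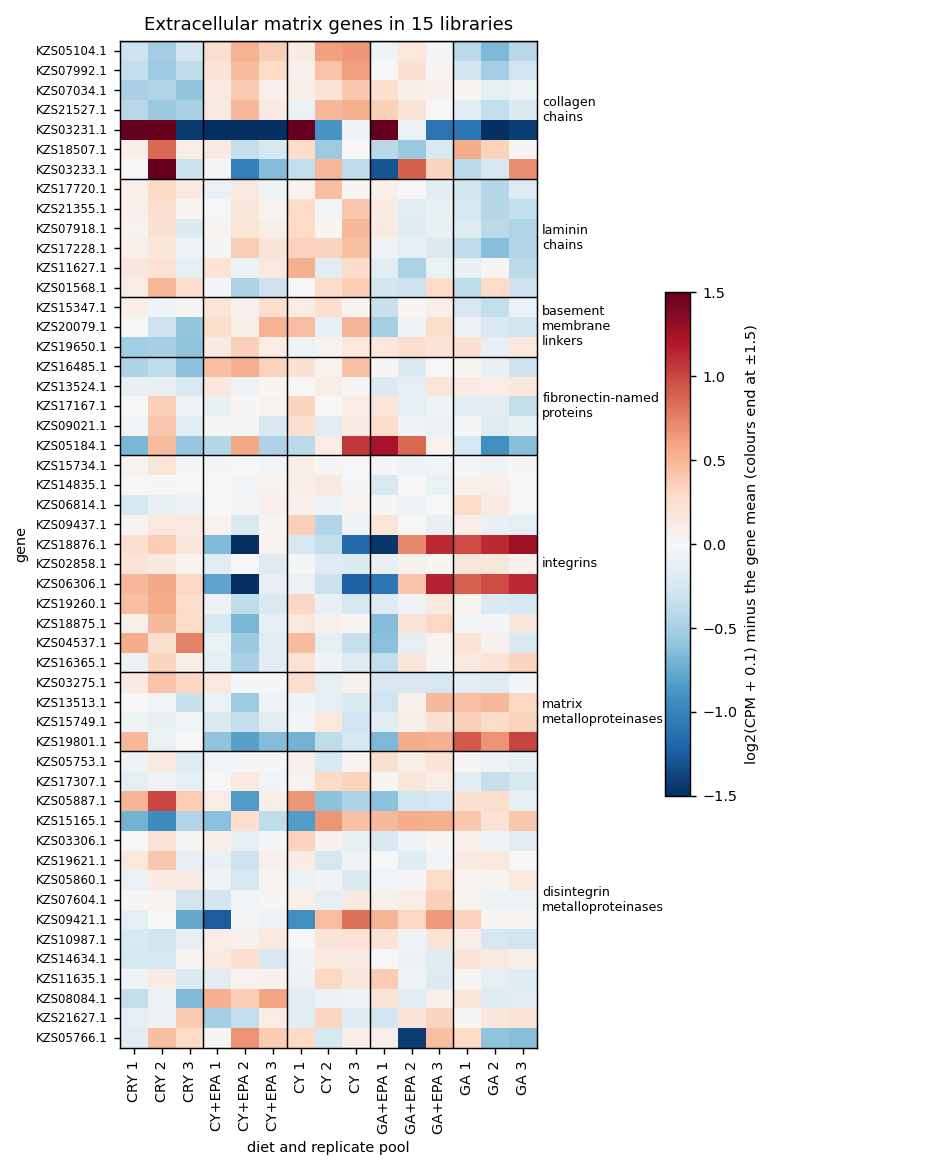
Level of the 51 tested extracellular matrix genes (rows, grouped by role) in each of the 15 libraries (columns, by diet and replicate pool), as log2(CPM + 0.1) minus the mean of the gene over all libraries, with colours ending at ±1.5. The 4 abundant collagen chains were high in CY and CY+EPA, and integrin alpha-PS4 (KZS18876.1), integrin beta-nu (KZS06306.1) and matrix metalloproteinase 1 (KZS19801.1) were high in GA.

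Collagen chains assemble in threes into the triple helices that give the matrix its strength. KZS05104.1, named alpha-1(XXVII), was the most abundant member by far, at a mean of 415 FPKM (a level per length of the gene model) and 27.6% to 42.6% of the summed CPM of all 57 genes in a library. It lies on scaffold LRGB01002993.1 of the *D. magna* assembly version 2.4, bases 64860 to 74027, on the plus strand. It had 1865, 1605 and 1883 CPM in CRY, 2757, 3312 and 2985 in CY+EPA, 2520, 3523 and 3615 in CY, 2199, 2575 and 2269 in GA+EPA, and 1736, 1447 and 1727 in GA. Every CRY and GA pool was thus below every pool of the other 3 diets. Over the 5 diets its adjusted p was 0.00108.

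The other 3 abundant chains followed in nearly the same order, but with CRY rather than GA lowest. KZS07992.1, named alpha-2 and classed by artNOG under TSPN, the thrombospondin-type domain at the start of many collagens, averaged 439 ± 29.0 CPM in CRY, 739 ± 76.7 in CY+EPA, 776 ± 150 in CY, 632 ± 53.1 in GA+EPA and 462 ± 42.5 in GA (SD, n = 3 each). KZS07034.1 was named alpha-1(XXV), but artNOG gives it as C4, the closing domain of type IV collagen, the collagen of basement membranes. Its CPM were 343, 352 and 316 in CRY, 530, 630 and 505 in CY+EPA, 513, 555 and 635 in CY, 567, 510 and 501 in GA+EPA, and 494, 438 and 455 in GA. The CRY pools were below every other pool. KZS21527.1, a collagen alpha chain with no type in its name, averaged 80.2 ± 3.77 CPM in CRY, 134 ± 19.9 in CY+EPA, 142 ± 32 in CY, 128 ± 15.6 in GA+EPA and 94.0 ± 6.74 in GA, and its adjusted p over the 5 diets was 0.00859. That last call was kept in 9 of 24 alternatives. It was lost without any 1 of the CRY, CY+EPA or GA pools, CY replicate 2 or 3 or GA+EPA replicate 2, with adjusted p between 0.0116 and 0.0262. The call of KZS07034.1 was lost without CRY replicate 3 (adjusted p = 0.0114).

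Taken pair by pair, the collagen differences mostly missed the threshold. In CY against GA every CY pool was above every GA pool for all 4 chains (17.5% of all genes), with log2 fold changes of 0.95 ± 0.16 for KZS05104.1 (SE; adjusted p = 0.0102), 0.72 ± 0.16 for KZS07992.1 (0.0255), 0.56 ± 0.17 for KZS21527.1 (0.0748) and 0.27 ± 0.11 for KZS07034.1 (0.146), by edgeR. A separate fit of the 14 libraries other than CY replicate 1 called the first 3 of these. That fit was added after seeing the data, and the share of all genes that it called is not given. In CRY against GA 1 of 6 collagen chains tested was called, where 16.2% of all genes were. KZS07034.1 fell by 0.45 ± 0.07 on the log2 scale (adjusted p = 0.00174, and 0.0116 with all 15 libraries in 1 fit), whereas KZS05104.1 and KZS07992.1 had log2 fold changes of 0.13 ± 0.09 and -0.07 ± 0.08 with overlapping pools. On the FPKM scale the first of these was -0.031. KZS21527.1 had a log2 fold change of -0.23 (edgeR adjusted p = 0.0429), with every CRY pool below every GA pool (pools did not overlap for 46.1% of all genes). The difference between these responses and that of KZS07034.1 was not tested. In CRY against CY all 4 chains had log2 fold changes between -0.84 and -0.74 with no overlap between pools (for lower CRY pools, 10.7% of all genes), and adjusted p between 0.200 and 0.231.

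**Figure D2:**
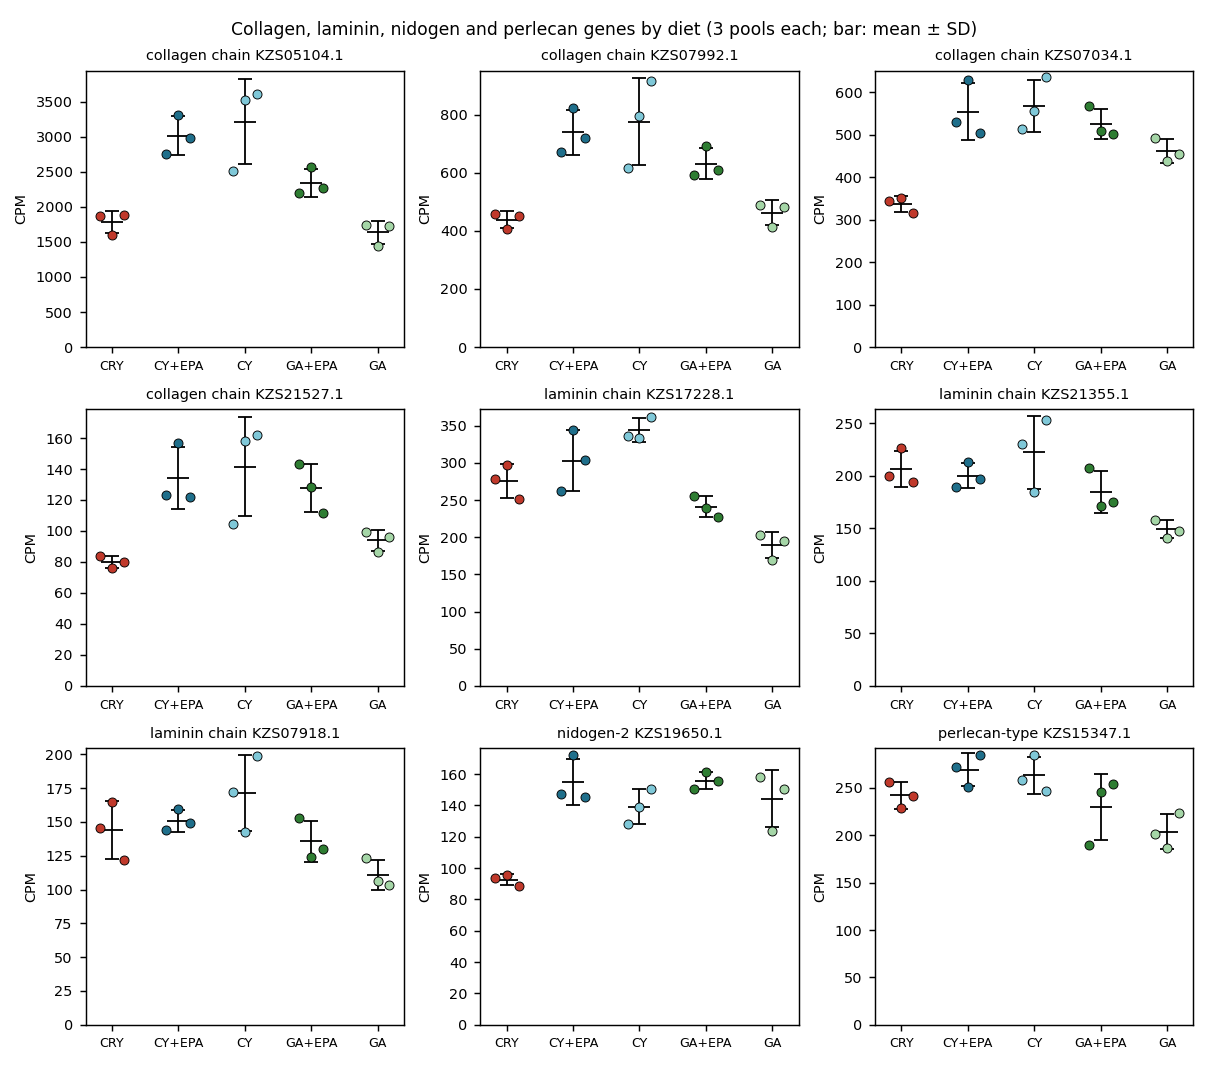
CPM of 4 collagen chains, 3 laminin chains, nidogen-2 and a perlecan-type gene in each pool (points) on the 5 diets, with the mean and SD of the 3 pools (bars). The 3 GA pools of the laminin chain KZS17228.1 lie between 170 and 203 CPM, below every pool of the other diets, and the 3 CRY pools of nidogen-2 between 88.6 and 95.4 CPM, below every other pool.

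A second set of collagen genes was near 0 in most pools and high in single ones. These genes, other than KZS03231.1, were chosen after their values were seen. KZS03231.1, named alpha-1(XIII) and given as C4 by artNOG, had 99.2, 46.8 and 1.59 CPM in CRY, 0.479, 1.32 and 0.878 in CY+EPA, 30.1, 2.37 and 4.23 in CY, 110, 4.16 and 2.03 in GA+EPA, and 2.06, 0.956 and 1.61 in GA. High pools thus occurred on 3 diets and no diet was high throughout. In CRY against GA its log2 fold change was 4.98 ± 1.18, with overlapping pools and an edgeR adjusted p of 0.0145. KZS06951.1, named alpha-3(IX), had 16.4 CPM in CRY replicate 2 and at most 0.273 CPM in the other 14 libraries. KZS03230.1 had 4.98 CPM in the same library and at most 0.161 CPM elsewhere, and KZS03233.1 had 2.20 CPM there and at most 0.795 CPM elsewhere. KZS03230.1, KZS03231.1 and KZS03233.1 are neighbours on scaffold LRGB01003325.1, between bases 322955 and 352738, with 1 other gene among them. The largest library exceeded 5 times the median library in 2 of 51 members tested (3.92%) and in 2.23% of all genes tested.

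**Figure D3:**
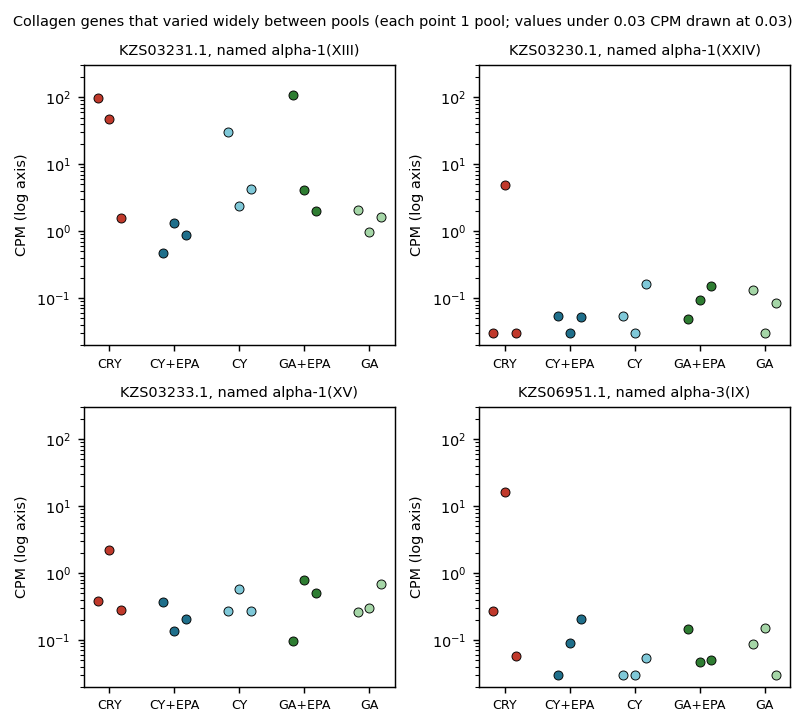
CPM of 4 collagen genes in each pool (points, log axis, values under 0.03 CPM drawn at 0.03) on the 5 diets. KZS03231.1 reached 30.1 to 110 CPM in 4 pools of 3 diets, and the other 3 genes were highest in CRY replicate 2.

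Laminins are crosses of an alpha, a beta and a gamma chain that start the basement membrane sheet. All 6 members carry beta-1 or gamma-3 in their product names, while artNOG describes KZS17228.1 as laminin A and KZS11627.1 as a laminin alpha-1,2 chain, so the product names do not settle which chain a gene encodes. Every laminin gene but KZS11627.1 shared reads with another gene in at least 1 library. KZS17228.1, on scaffold LRGB01000642.1 (bases 789171 to 803538, minus strand), had 278, 297 and 252 CPM in CRY, 262, 344 and 303 in CY+EPA, 336, 333 and 362 in CY, 255, 240 and 227 in GA+EPA, and 203, 170 and 195 in GA. The GA pools were lowest. The gene rose by 0.83 ± 0.10 on the log2 scale in CY against GA (adjusted p = 0.00286) and by 0.54 ± 0.09 in CRY against GA (0.00245). With GA replicate 1, 2 or 3 left out in turn the adjusted p in CY against GA was 0.0166, 0.0181 or 0.0220, and in CRY against GA it was 0.0116 without CRY replicate 1 and 0.0108 without GA replicate 3.

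In CRY against GA 3 of 6 laminin chains rose, where 6.62% of all genes did. KZS21355.1, given by artNOG as laminin B domain IV, had 200, 226 and 194 CPM in CRY and 158, 141 and 148 CPM in GA, a log2 fold change of 0.47 ± 0.08 (adjusted p = 0.00263). KZS17720.1 rose by 0.47 ± 0.08 (0.00417), but its model starts at the first base of its scaffold. Without GA replicate 2 or GA replicate 3 the adjusted p of KZS21355.1 was 0.0143 or 0.0141, and that of KZS17720.1 was between 0.0108 and 0.0224 without CRY replicate 3 or any 1 GA pool. On the FPKM scale all 3 laminin chains were higher in CRY but none was called, with adjusted p between 0.0219 and 0.0380. Other chains with at least 1 CPM, KZS07918.1 and KZS11627.1, had log2 fold changes of 0.38 ± 0.12 and 0.24 ± 0.12. All 6 chains had a higher mean in CRY than in GA and in CY than in GA, and 4 of 6 had their lowest mean in GA (against 25.1% of all genes). Yolk transcripts moved with the laminins: 18 vitellogenin genes summed to 78966 to 110328 CPM in CRY, 76551 to 96630 in CY+EPA, 68173 to 148297 in CY, 24213 to 46418 in GA+EPA and 9110 to 14626 in GA. In CRY against GA 13 of 17 vitellogenin genes tested rose (6.62% of all genes) and 1 fell (9.59%), and their part in the laminin levels was not tested.

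Nidogen binds laminin to collagen IV, and perlecan is a large heparan sulfate proteoglycan of the same sheet. Nidogen-2 (KZS19650.1) had 93.8, 95.4 and 88.6 CPM in CRY, 147, 172 and 146 in CY+EPA, 128, 139 and 150 in CY, 150, 161 and 156 in GA+EPA, and 158, 124 and 151 in GA. It was low on CRY only. It fell by 0.64 ± 0.09 on the log2 scale in CRY against GA (adjusted p = 0.00163), a call kept in all 15 alternatives run, and its log2 fold change in CRY against CY was -0.57 ± 0.09 (adjusted p = 0.219). The perlecan-type genes KZS15347.1 and KZS20079.1 averaged 242 ± 13.8 and 180 ± 36.7 CPM in CRY and 204 ± 18.8 and 191 ± 13.0 CPM in GA. Their means were 269 and 270 CPM in CY+EPA, 263 and 271 in CY, and 230 and 209 in GA+EPA. Neither was called on any pair of diets. KZS15347.1 shared reads with another gene in every library.

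The fibronectin-named genes are not fibronectin, a vertebrate protein. All but KZS05184.1 are named for the fibronectin type III repeat, which also occurs in muscle and signalling proteins. Only KZS13524.1 has that repeat as its artNOG description. The longest, KZS16485.1, has a model of 25961 bases and an immunoglobulin-like artNOG description. It had 536, 568 and 476 CPM in CRY, 1011, 1077 and 934 in CY+EPA, 866, 763 and 999 in CY, 746, 641 and 733 in GA+EPA, and 754, 683 and 593 in GA. CRY was below and the cyanobacterial diets above all green algal pools. Its adjusted p over the 5 diets was 0.00144. The summed CPM of 14 muscle genes ran from 3775 to 4063 in CRY, 5548 to 6522 in CY+EPA, 4624 to 5898 in CY, 4494 to 4865 in GA+EPA and 4799 to 5521 in GA, and 7 of the 14 fell in CRY against GA (9.59% of all genes) while none rose (6.62%). The part of muscle RNA in the levels of KZS16485.1 was not tested. KZS13524.1 fell by 0.28 ± 0.06 in CRY against GA (adjusted p = 0.00964), a call kept in 7 of 15 alternatives and lost without any 1 pool but CRY replicate 2 (adjusted p between 0.0233 and 0.0323). KZS17167.1 averaged 78.3 ± 12.9 CPM in CRY and 62.1 ± 4.91 CPM in GA, and was not called.

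Integrins are pairs of an alpha and a beta chain that tie the matrix to the cytoskeleton. Their most abundant beta chain, KZS15734.1, was the steadiest member, with diet means of 161 to 173 CPM, and in *Drosophila* its counterparts pair with most alpha chains. The kinase KZS14835.1, an adaptor on the inner side of integrins, averaged 42.1 to 47.5 CPM. The alpha chains PS2 (KZS06814.1) and PS1 (KZS09437.1) averaged 81.0 ± 4.21 and 61.1 ± 2.80 CPM in CRY and 99.2 ± 9.23 and 54.4 ± 5.07 CPM in GA, and neither was called.

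A pair of integrin genes varied far more. Integrin alpha-PS4 (KZS18876.1, scaffold LRGB01000512.1, bases 3497390 to 3501038, minus strand) had 37.0, 40.5 and 35.0 CPM in CRY, 19.6, 6.90 and 32.3 in CY+EPA, 26.0, 24.1 and 13.8 in CY, 11.2, 51.4 and 67.7 in GA+EPA, and 61.4, 67.5 and 75.3 in GA. Integrin beta-nu (KZS06306.1), 1 of a pair of genes with the name of a *Drosophila* beta chain of the midgut, had 40.3, 42.3 and 35.5 CPM in CRY, 16.4, 5.59 and 26.2 in CY+EPA, 27.0, 22.9 and 12.2 in CY, 13.5, 38.3 and 63.6 in GA+EPA, and 53.0, 56.4 and 62.4 in GA. In both genes CY+EPA replicate 2 was the lowest library, GA pools were high, and GA+EPA replicate 1 lay far below the other GA+EPA pools. Alpha-PS4 fell by 1.70 ± 0.23 on the log2 scale in CY against GA (adjusted p = 0.00470) and by 0.86 ± 0.09 in CRY against GA (0.000247). Beta-nu fell by 0.54 ± 0.09 in CRY against GA (0.00227), and its log2 fold change in CY against GA was -1.50 ± 0.27 (0.0124). Without GA replicate 1, 2 or 3 the adjusted p of alpha-PS4 in CY against GA was 0.0239, 0.0253 or 0.0273, and that of beta-nu in CRY against GA was 0.0103 without CRY replicate 1, 0.0105 without GA replicate 2 and 0.0106 without GA replicate 3. Without CY replicate 1, in a fit of 14 libraries, alpha-PS4 had an adjusted p of 0.0757 in CY against GA. With all 15 libraries in 1 fit, and so 1 spread, the adjusted p in CRY against GA was 0.315 for alpha-PS4 and 0.517 for beta-nu, and in CY against GA it was 0.0573 for alpha-PS4.

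The gene next to alpha-PS4, 351 bases away and named integrin alpha-ps (KZS18875.1), did not share this range: it had 9.94, 13.3 and 11.5 CPM in CRY, 7.82, 5.81 and 8.63 in CY+EPA, 10.5, 9.82 and 9.65 in CY, 5.96, 10.8 and 11.7 in GA+EPA, and 9.27, 9.26 and 10.6 in GA. The lowest libraries of KZS18875.1 were still CY+EPA replicate 2 and GA+EPA replicate 1. The same libraries were lowest for the integrin chains KZS16365.1 (9.08 and 9.86 CPM) and KZS04537.1 (3.04 and 2.89 CPM). Digestive protease genes were low in some of the same libraries. The summed CPM of 36 trypsin and chymotrypsin genes, none of them at 0 in every library, were lowest in CY+EPA replicate 2 (4209) and next in GA+EPA replicate 1 (5934), and ran from 11690 to 13424 in CRY, 4209 to 10009 in CY+EPA, 7425 to 12669 in CY, 5934 to 18008 in GA+EPA and 13532 to 14655 in GA. Of 30 such genes tested 2 rose and 2 fell in CY against GA (1.27% and 4.72% of all genes), and 9 rose and 3 fell in CRY against GA (6.62% and 9.59%). The part of gut RNA in the integrin levels was not tested. The remaining chains KZS19260.1, KZS04537.1 and KZS16365.1 averaged 14.3, 6.58 and 13.9 CPM in CRY and 9.65, 4.61 and 15.0 CPM in GA, and edgeR called none. KZS04537.1 is also named integrin beta-nu, and its log2 fold change in CRY against GA was 0.51 ± 0.18 (adjusted p = 0.0669). KZS19260.1 had a log2 fold change of 0.57 ± 0.12 in CRY against GA (adjusted p = 0.0103) and was called with DESeq2 (0.00155), RLE factors (0.00859), no filter (0.00915) or a minimum of 10 counts (0.00956). The integrin-named repeat protein KZS02858.1 averaged 26.9 ± 1.57 CPM in CRY, 22.7 ± 1.61 in CY+EPA, 22.3 ± 1.62 in CY, 24.5 ± 1.53 in GA+EPA and 27.1 ± 1.18 in GA. Over the 5 diets its edgeR adjusted p was 0.0472.

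**Figure D4:**
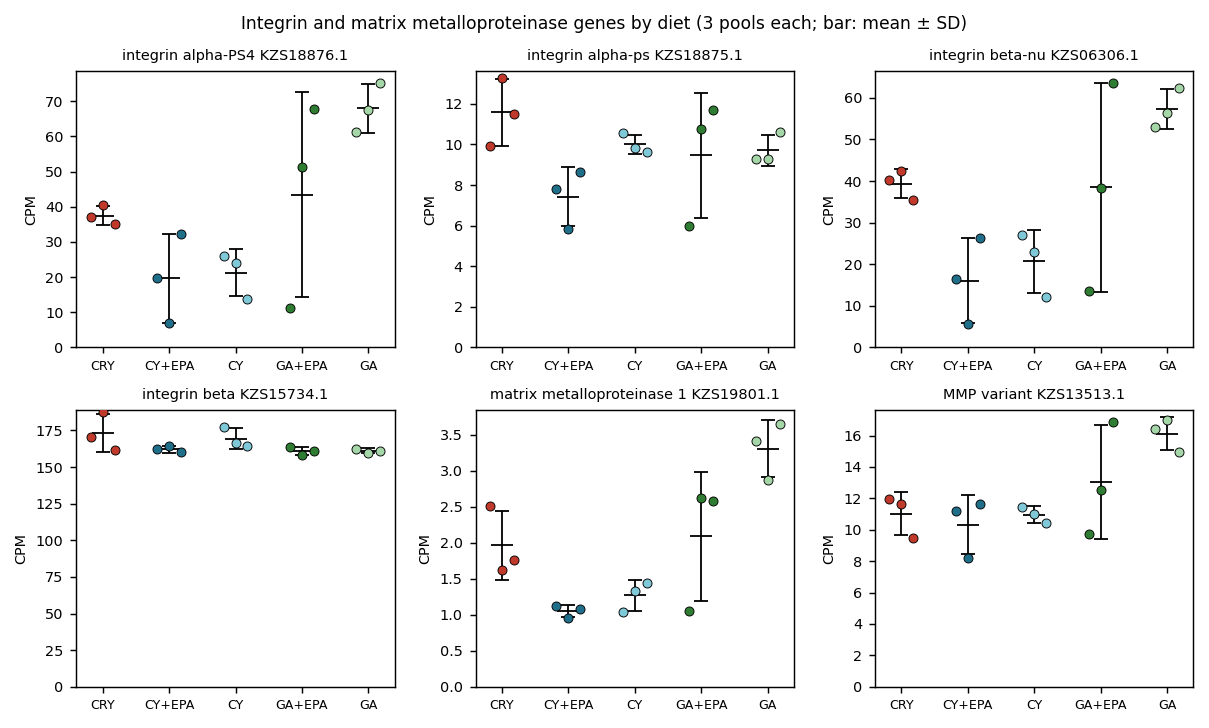
CPM of 4 integrin genes and 2 matrix metalloproteinase genes in each pool (points) on the 5 diets, with the mean and SD of the 3 pools (bars). Alpha-PS4 ranged from 6.90 to 75.3 CPM while its neighbour KZS18875.1 ranged from 5.81 to 13.3 CPM, and the GA pools of alpha-PS4 lie above all CY and CRY pools.

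Matrix metalloproteinases are zinc enzymes that cut collagen and other matrix proteins. Matrix metalloproteinase 1 (KZS19801.1), with few counts, had 2.51, 1.63 and 1.76 CPM in CRY, 1.12, 0.954 and 1.09 in CY+EPA, 1.03, 1.33 and 1.45 in CY, 1.06, 2.62 and 2.59 in GA+EPA, and 3.41, 2.87 and 3.65 in GA. As in alpha-PS4, GA+EPA replicate 1 was the low pool of its group. It fell by 1.41 ± 0.21 on the log2 scale in CY against GA (adjusted p = 0.00630), and its log2 fold change in CRY against GA was -0.75 ± 0.22 (0.0365). The call in CY against GA was lost without CY replicate 2 (adjusted p = 0.0137), CY replicate 3 (0.0211), GA replicate 1 (0.0396), GA replicate 2 (0.0240) or GA replicate 3 (0.0379), and without CY replicate 1 in a fit of 14 libraries (0.0283). The 2 genes named as variants, KZS15749.1 and KZS13513.1, fell by 0.40 ± 0.08 and 0.54 ± 0.11 in CRY against GA (adjusted p = 0.00583 and 0.00878). The call of KZS15749.1 was lost without any 1 of the 6 pools (0.0130 to 0.0233), and that of KZS13513.1 without any 1 pool but CRY replicate 2 (0.0151 to 0.0331). KZS03275.1, named matrix metalloproteinase-24, averaged 29.5 ± 3.08 CPM in CRY and 22.0 ± 1.21 CPM in GA (log2 fold change 0.42 ± 0.09, adjusted p = 0.0114).

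The disintegrin metalloproteinases cut proteins of the cell surface (ADAM type) or of the matrix (ADAMTS type, with thrombospondin motifs). Of 15 tested, 1 was called in a pair of diets, CRY against GA, where 16.2% of all genes were called. KZS15165.1, named ADAMTS 3, which in vertebrates trims procollagen, had 13.6, 11.5 and 16.2 CPM in CRY, 14.4, 26.6 and 17.2 in CY+EPA, 12.4, 35.2 and 30.2 in CY, 31.2, 32.7 and 32.5 in GA+EPA, and 29.6, 25.9 and 29.6 in GA. All CRY pools were below all green algal pools, and CY replicate 1 was level with CRY. It fell by 1.04 ± 0.13 on the log2 scale in CRY against GA (adjusted p = 0.000652), the largest fall among the called members in that comparison, a call kept in 14 of 15 alternatives and lost with all 15 libraries in 1 fit (0.0380). The most abundant by FPKM, KZS05753.1, averaged between 75.7 and 88.7 CPM on the 5 diets. KZS17307.1 (ADAMTS 8) averaged 101 ± 10.7 CPM in CY and 72.3 ± 4.54 CPM in GA (log2 fold change 0.46 ± 0.10, adjusted p = 0.0273), and KZS05887.1 (ADAMTS 2) averaged 51.5 ± 12.1 CPM in CRY and 35.7 ± 5.46 CPM in GA. For both of these artNOG gives another kind of protein, an acyl ligase and a syntaxin.

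The first question was the effect of EPA on each basal food. No matrix gene was called in GA+EPA against GA, and neither was any of 14353 genes (0%). With the unadjusted p held to 0.05 there were 14 of 51 members (18.4% of all genes), of which 11 were higher (11.4%) and 3 lower (6.95%). DESeq2 called 1, KZS05184.1, but the share of all genes that DESeq2 called is not given. The median log2 fold change of the members was 0.11, and that of all genes 0.00. Pools did not overlap for 22 members (27.6% of all genes), 14 of them higher in GA+EPA (13.9% of all genes) and 8 lower. Among the higher were the collagens KZS05104.1 (0.53 ± 0.12, edgeR adjusted p = 0.115), KZS07992.1 (0.46 ± 0.11) and KZS21527.1 (0.45 ± 0.10) and 4 of 6 laminin chains. Among the lower were 3 of 4 matrix metalloproteinases. KZS05184.1, a protein with fibrinogen and fibronectin in its name, had 30.4, 23.6 and 13.4 CPM in GA+EPA and 10.8, 6.80 and 8.22 CPM in GA (log2 fold change 1.38 ± 0.31, adjusted p = 0.116). With GA+EPA replicate 1 left out no member was called either.

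On the cyanobacterium most members had log2 fold changes below 0. No gene was called in CY+EPA against CY (0% of 14162), by edgeR, and DESeq2 called no member. With the unadjusted p held to 0.05 there were 3 of 50 members, where 1.93% of all genes were so, and 8 of the 50 log2 fold changes were above 0 (44.1% of all genes), with a median of -0.13 against -0.02 over all genes. Pools did not overlap for 4 members (6.57% of all genes). KZS08084.1, an ADAM 12, had 3.51, 3.13 and 3.67 CPM in CY+EPA and 2.12, 2.25 and 2.30 CPM in CY (log2 fold change 0.62 ± 0.17, edgeR adjusted p = 1.00), and KZS03231.1 had a log2 fold change of -3.76 ± 1.07 (adjusted p = 1.00). Over the alternatives the log2 fold change of KZS03231.1 ran from -4.23 to -1.49. Without CY replicate 1 several members changed sign in this comparison, among them the laminin chain KZS11627.1 and alpha-PS4. The difference between both EPA responses was tested in 1 fit of 12 libraries, which called no gene of 14816 (0%) and, by DESeq2, no member. There 11 of 51 members passed at 0.05 unadjusted, where 10.8% of all genes did, and 10 of the 11 had the higher response on GA (6.21%). The smallest p was that of KZS17307.1 (0.54 ± 0.14, adjusted p = 0.289). KZS03231.1 came next (8.34 ± 2.13, adjusted p = 0.300), and of these 12 libraries it was highest in GA+EPA replicate 1 and CY replicate 1.

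Between basal foods 3 of 50 members were called in CY against GA, where 5.99% of all genes were. KZS17228.1 rose (1.27% of all genes), and alpha-PS4 and matrix metalloproteinase 1 fell (4.72%). At an adjusted p of 0.05 there were 10 (14.4%). The medians were 0.08 for the members and -0.00 for all genes, and pools did not overlap for 22 members (37.1% of all genes). With each of GA replicate 1, GA replicate 2 and GA replicate 3 left out in turn no member was called. There were 8 calls without CY replicate 1 and 5 without CY replicate 2. With 14 libraries in 1 fit, CY replicate 1 left out, 5 were called and all 5 were higher in CY. The shares of all genes called in these fits are not given, so these counts are not set against the background. With EPA on both foods, CY+EPA against GA+EPA, no member was called (0.147% of all genes), by edgeR. DESeq2 called 1, but the share of all genes that DESeq2 called is not given. There were 11 of 50 members below an unadjusted p of 0.05 (20.8% of all genes), and pools did not overlap for 11 (26.4%). The smallest was that of KZS16485.1 (0.51 ± 0.10, adjusted p = 0.0669), followed by KZS03275.1 (0.29 ± 0.09, adjusted p = 0.142). A fit of 14 libraries without GA+EPA replicate 1 called matrix metalloproteinase 1, lower in CY+EPA, and the share of all genes that it called is not given.

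CRY against GA gave most calls, 11 of 50 members, where 16.2% of all genes were called, and 21 at an adjusted p of 0.05 (30.2%). The 3 laminin chains above rose, and the 8 that fell were nidogen-2, the collagen KZS07034.1, ADAMTS 3, KZS13524.1, alpha-PS4, beta-nu and both matrix metalloproteinase variants (9.59% of all genes). The medians were 0.04 for the members and -0.00 for all genes, and pools did not overlap for 25 members (46.1% of all genes). The FPKM scale, which shifts the median of all genes to -0.17 in this comparison, gave 8 calls, all of them lower. With all 15 libraries in 1 fit KZS17228.1 and nidogen-2 were called, and the other 9 had adjusted p between 0.0116 and 0.517. The count was 7 without CRY replicate 1, 5 without GA replicate 2 and 4 without GA replicate 3. For these alternatives the share of all genes called is not given. In CRY against CY no gene was called (0% of 14164), by edgeR. DESeq2 called 6 members, all lower, but the share of all genes that it called is not given here. With the unadjusted p held to 0.05 there were 15 of 50 members, where 15.6% of all genes were so, and 11 of the 15 were lower in CRY (7.65%). Pools did not overlap for 15 members (21.5% of all genes). The smallest p-values were those of KZS07034.1 (-0.74 ± 0.11, adjusted p = 0.200) and nidogen-2. With CY replicate 1 left out of a fit of the other 14 libraries 7 members fell, among 1.49% of all genes: the 4 abundant collagens, nidogen-2, KZS16485.1 and ADAMTS 3.

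**Figure D5:**
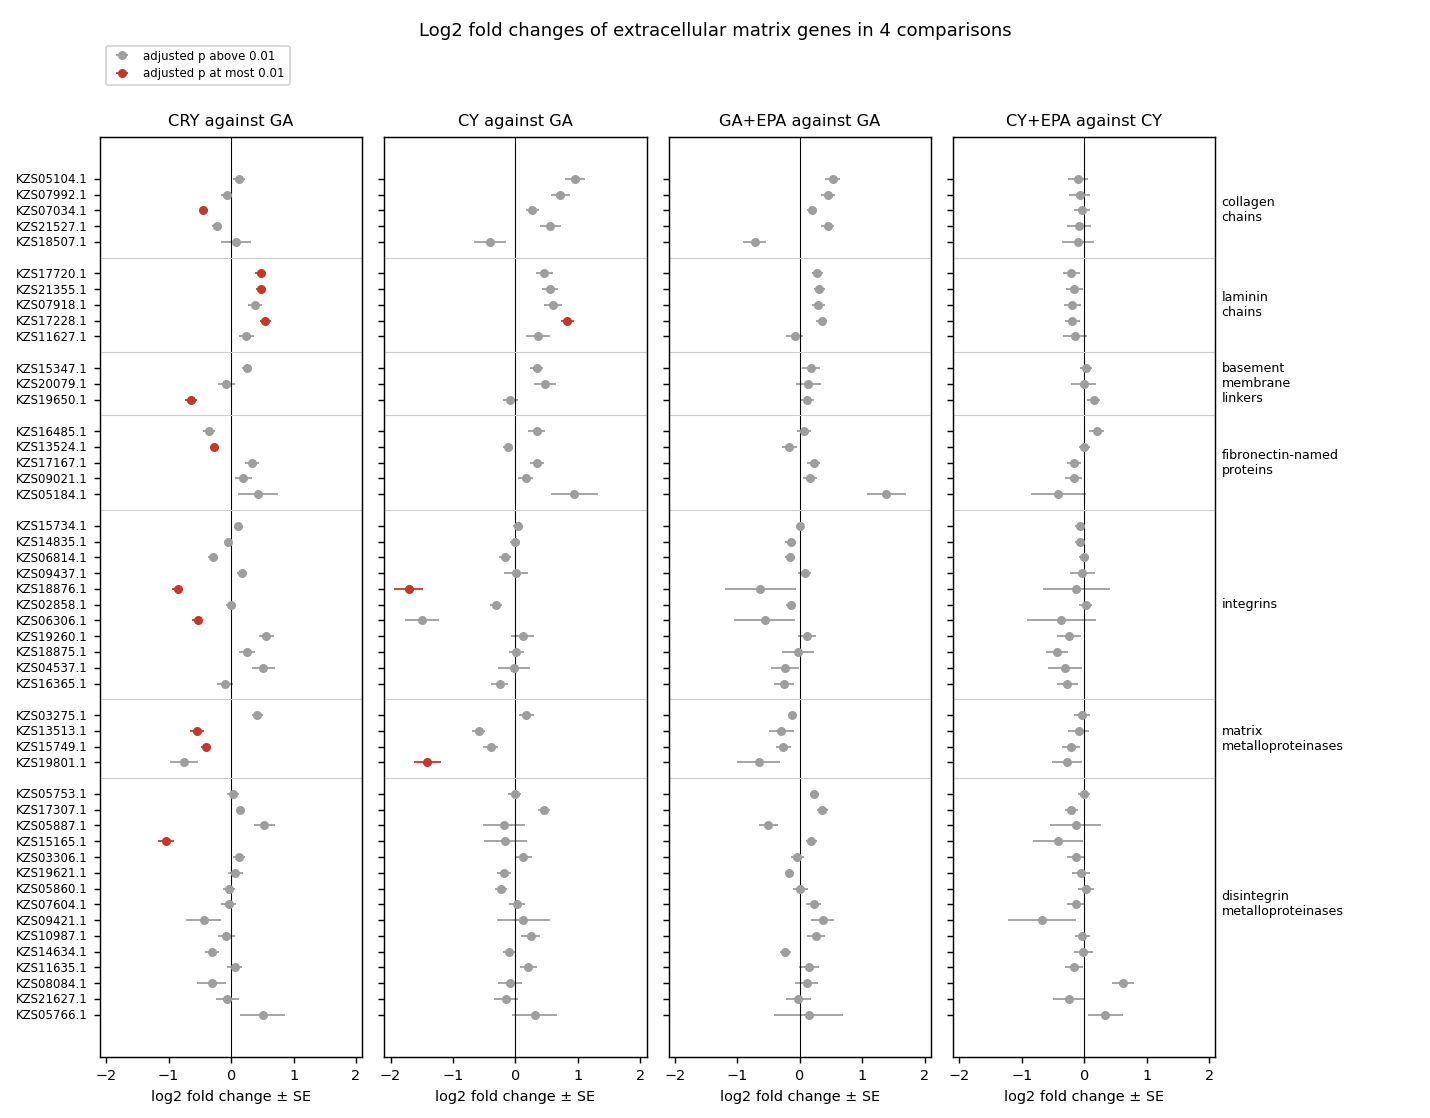
Log2 fold change (points) with its SE (lines) of the matrix genes tested that averaged 1 CPM or more, by role (rows), in 4 comparisons (panels); KZS03231.1 is left out because of its spread. Red marks an adjusted p of at most 0.01, and the 11 red points in CRY against GA include 3 laminin chains to the right of 0 and 8 genes to the left.

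Other genes of the matrix, 73 found by name, were tested in the same fits. In CRY against GA 10 of 67 tested were called (14.9%, against 16.2% of all genes), 9 of them higher (6.62%) and 1 lower (9.59%). Those of collagen biosynthesis, the enzymes and chaperones that modify and cross-link collagen, were set apart as 1 list, of which 7 of 12 tested rose in CRY against GA (6.62% of all genes) and none fell (9.59%), with a median log2 fold change of 0.47. Peroxidasin (KZS10831.1), which cross-links collagen IV, had 249, 283 and 207 CPM in CRY and 93.9, 91.8 and 94.0 CPM in GA (1.40 ± 0.11, adjusted p = 5.5e-05). A lysyl hydroxylase of procollagen (KZS21105.1) had 114, 121 and 114 CPM in CRY and 63.5, 62.8 and 51.1 CPM in GA (0.98 ± 0.09, adjusted p = 0.000138). The smallest rises called were those of a prolyl 4-hydroxylase (KZS04832.1, 0.39 ± 0.06) and a lysyl oxidase (KZS06844.1, 0.55 ± 0.08). The difference in response between these genes and the collagen chains was not tested. In the same comparison 1 of 9 genes listed as matrix receptors rose (6.62% of all genes). This was KZS03172.1 (0.63 ± 0.13), named discoidin domain-containing receptor 2 but described by artNOG as a protein of DNA replication. None of 6 matrix proteases and inhibitors or of 12 adhesion adaptors inside the cell was called (16.2% of all genes). Of 28 other matrix proteins a thrombospondin-type protein (KZS03252.1) rose by 1.02 ± 0.17 (6.62%) and a fibulin (KZS17855.1) fell by 1.73 ± 0.33 (9.59%). In CY against GA 1 of 67 was called (5.99% of all genes), a fibrillin-like gene (KZS09136.1) that fell by 0.90 ± 0.13. The alternatives were counted for the members only, and the calls of these other genes were not followed under them.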

How the data were processed

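Per the labels and the study's methods, the authors trimmed reads with Trimmomatic, aligned them with Bowtie2 to *D. magna* assembly version 2.4 and quantified genes with RSEM 1.2.31. The deposited expected counts are RSEM's estimates of read pairs per gene, not normalized. The deposited FPKM values divide these by effective length and library total. TPM values, which the authors' RSEM run scaled to 1 sum in every library, are deposited too and were not used. Locations, product names and artNOG classes come from the authors' annotation, joined by transcript, which covered 26645 of 26646 genes.

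For edgeR 4.0.16 (R 4.3.3) the estimates were taken to whole numbers, filtered with filterByExpr, scaled by TMM and fitted with glmQLFit and glmQLFTest, each comparison on its own libraries. A call needed a Benjamini-Hochberg adjusted p no higher than 0.01. CPM values use TMM factors of all 15 libraries (0.907 to 1.09). Fold changes are on the log2 scale with SE = log2 fold change divided by the square root of F. Pools are the replicates, and their spread rather than depth limits precision. Alternatives were RLE factors, DESeq2 1.42.0, no filter, a minimum of 10 counts per library, a joint fit of all 15 libraries, blocking on the replicate number, a threshold of 0.05, limma 3.58.1 on log2(FPKM + 0.1) and log2(FPKM + 1), and each library left out. Fits without the libraries that stood apart were added after seeing the data. The fits were tested on simulated data.

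Members, roles and lists were chosen with earlier results of these data known. Named were the 3 members of each role highest in FPKM, every integrin, laminin, nidogen and perlecan chain of at least 1 CPM, the 5 highest and 5 lowest called members per comparison, the 2 smallest p-values where none was called, and called members over the 5 diets. Of each list of other matrix genes the 2 highest and 2 lowest called were named.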

Additional observations from a re-analysis of the deposited data

How the results depend on the processing

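Of the members whose log2 fold change is printed singly, 1 changed sign in a comparison: KZS05104.1 in CRY against GA, 0.13 in the fit reported, was -0.031 on the FPKM scale with either pseudocount. Of the genes given as means in CRY and GA, KZS20079.1 and KZS16365.1 changed sign under 1 alternative each and KZS02858.1 under 5. The number of members called in CY against GA, 3 in the fit reported, was 10 with DESeq2 and likewise at a threshold of 0.05, 5 with no filter and on either FPKM scale, 7 with all 15 libraries in 1 fit, 5 without CY replicate 1 in a fit of 14 libraries, and between 0 and 8 with 1 library left out. In CRY against GA, 11 as reported, it was 17 with DESeq2, 2 with all 15 libraries in 1 fit, 21 at a threshold of 0.05, and between 4 and 10 with 1 library left out. Over the 5 diets, 7 as reported, it was 18 with DESeq2, 17 at a threshold of 0.05, 12 without CY replicate 1 and GA+EPA replicate 1, and between 4 and 10 with 1 library left out. Where 0 were called, DESeq2 called 1 in GA+EPA against GA, 1 in CY+EPA against GA+EPA and 6 in CRY against CY. Without GA+EPA replicate 1 in a fit of 14 libraries 1 was called in CY+EPA against GA+EPA. In CRY against CY 7 were called without CY replicate 1 in a fit of 14 libraries, and between 0 and 1 with 1 library left out. These counts stand without the share of all genes called under the same setting. Over the 5 diets that share also moved with the setting, so a change in count need not be particular to the members. The cause was not tested.

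The replicate numbers did not pair the samples: correlations of same-numbered deviations ran from -0.459 to 0.770, and in no comparison were all 3 above 0.1. With the replicate number as a block, 0 members were called in CY against GA, 12 in CRY against GA, 6 over the 5 diets and 0 elsewhere.

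Several members are gene fragments or share reads, and depth limits statements on genes under 1 CPM.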
